A study of Mus musculus with 6 samples.

Results

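The genes described here are the 2 subunits of the receptor for glial cell line-derived neurotrophic factor (Gdnf) and 7 genes known or proposed to act downstream of it in spermatogonial stem cells. They are Gfra1, Ret, Etv5, Etv4, Bcl6b, Lhx1, Pou3f1, Id4 and Cxcr4, 9 of the 18194 genes measured. They were picked by name, and all 9 were on the array. They lie on 19 of the 34958 probe sets that carry exactly 1 gene symbol. For each gene the probe set with the highest mean over the 6 arrays gives the value, and the other probe sets serve as a check.

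RNA came from cells cultured from the testes of male ICR mice aged 3 to 5 days, grown on feeder layers of mitomycin-treated mouse embryonic fibroblasts. The groups are multipotent spermatogonial stem cells (mSSC), the intermediate state (iSSC) and unipotent germ-line stem cells (SSC), with 2 Affymetrix arrays each. Colonies were collected by hand according to their shape, so the groups were defined by morphology and no sort with a surface marker is described. Starting clumps were of early (0 to 1) and middle (9 to 10) passages, and colonies that had changed shape were kept in germ stem cell medium or moved to an embryonic stem cell medium. The labels assign no passage or medium to single arrays. Nor do they state that replicates came from distinct animals or cultures. The p-values then rest on the spread between arrays alone, which may be technical.

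Gdnf is secreted by the somatic cells of the testis niche and keeps spermatogonial stem cells renewing. It binds Gfra1, a co-receptor anchored in the membrane by a lipid, and the pair then activates Ret, a receptor tyrosine kinase that signals through Src family kinases, Akt and Erk. In cultured spermatogonia this signal raises transcription factors such as Etv5, Bcl6b, Lhx1, Pou3f1 and Id4, and mice that lack Etv5 lose spermatogenesis with age. Etv4 and Etv5 are closely related ETS factors and are also expressed in mouse embryonic stem cells, where fibroblast growth factor signalling controls them.

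Values are log2 signals, so a difference of 1 is a 2-fold change, and a gene is called changed at an adjusted p under 0.05 over all 18194 genes. The median log2 signal of an array lay between 5.83 and 5.93 and the lower quartile between 4.23 and 4.38. A signal under the lower quartile is near background. Every group mean below is over n = 2 arrays, and with 6 arrays in all their number limits the precision. Changes are differences of group means ± SE from limma.

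The labelled cell types were checked against marker genes. The germ line list had a median log2 signal of 6.33 and 6.96 on the mSSC arrays, 10.69 and 10.48 on the iSSC arrays and 9.86 and 10.39 on the SSC arrays, and 12 of its 14 measured genes fell in mSSC against SSC. Pluripotent cell markers were at 11.66 and 11.83 in mSSC, 7.37 and 7.82 in iSSC and 7.06 and 7.68 in SSC, and all 15 rose in mSSC against SSC. The 2 lists were thus high in the groups that their names call for. Between iSSC and SSC 1 germ line gene fell and no pluripotent cell marker passed limma's test. Of the pluripotent cell markers 2 were higher and 1 lower at an unadjusted p under 0.05, which 3090 of all 18194 genes reached. The arrays of all 3 groups also held signal of somatic cell markers, and the order of the groups differed between lists. Macrophage markers had medians of 5.24 and 5.18 in mSSC, 9.19 and 8.68 in iSSC and 11.64 and 10.90 in SSC, with log2 summed signals of 10.81 to 11.93, 13.59 to 14.37 and 15.39 to 15.98. Fibroblast markers had medians of 7.59 and 8.93 in mSSC, 9.71 and 10.19 in iSSC and 12.38 and 11.66 in SSC, with log2 summed signals of 13.14 to 14.15, 14.17 to 14.60 and 15.90 to 16.57. Of the 15 macrophage markers 13 fell in mSSC against SSC, 10 fell in mSSC against iSSC and 6 fell in iSSC against SSC. For the 14 fibroblast markers these counts were 10, 4 and 1, and for 14 Sertoli cell markers 11, 3 and 4, with 1, 2 and 0 higher. The Sertoli cell list had medians of 5.87 and 5.99 in mSSC, 6.29 and 6.36 in iSSC and 7.49 and 8.35 in SSC. Its log2 summed signals were 13.11 and 13.31 in mSSC, 12.96 and 11.74 in iSSC and 14.13 and 14.35 in SSC. Medians and sums thus put mSSC and iSSC in opposite order. Of 9 endothelial cell markers 3, 4 and 0 were higher and none lower. Of 7 smooth muscle markers 3, 0 and 1 were lower and none higher, and no Leydig cell marker passed. In such bulk samples fewer cells of a type and less RNA per cell cannot be told apart, and the part of these markers in the results on the members was not tested.

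**Figure D1:**
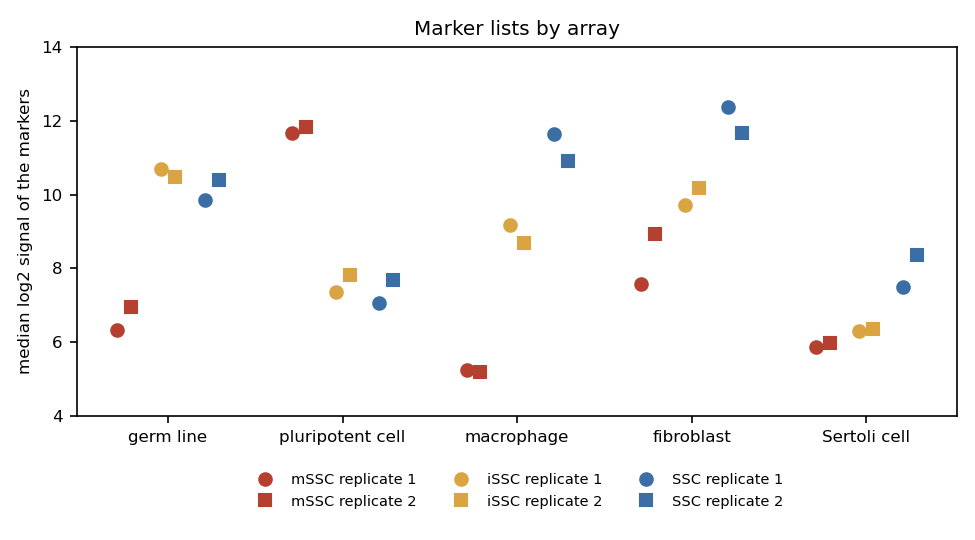
Median log2 signal (vertical axis) of the germ line, pluripotent cell, macrophage, fibroblast and Sertoli cell lists on each array. The lists are along the horizontal axis and the arrays are coloured by group. Macrophage and fibroblast markers are highest in SSC and lowest in mSSC, while pluripotent cell markers are at 11.66 and 11.83 in mSSC and under 8 on the other 4 arrays.

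One array stood apart in the controls for RNA quality. Control transcripts are read at both ends, and for beta-actin SSC replicate 1 had 0.89 more log2 signal at the 3' than at the 5' end, against 0.12 to 0.61 elsewhere. For pyruvate carboxylase this excess was 2.73, against 0.88 to 1.32 on the other 5 arrays. For some results that rest on the SSC arrays the change without SSC replicate 1 is therefore also given.

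Compared with SSC, the mSSC arrays had lower signal of both receptor subunits and of 5 of the target genes, while the ETS factors Etv5 and Etv4 were higher. Of the 9 members 7 fell and 2 rose in mSSC against SSC, where 10.6% of all genes fell and 8.22% rose. Against iSSC 7 of the 9 fell, the same 7 genes, and none rose, where 9.6% of all genes fell and 7.53% rose. The other members, Etv5 and Etv4, were higher there at an unadjusted p under 0.05, which 5629 of all 18194 genes reached in either direction. The median change of the members was -1.56 against SSC and -2.82 against iSSC, where the medians over all genes were 0.08 and -0.01. In iSSC against SSC 1 member, Lhx1, passed the test as higher and none as lower, where 0.225% of all genes rose and 1.87% fell.

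**Figure D2:**
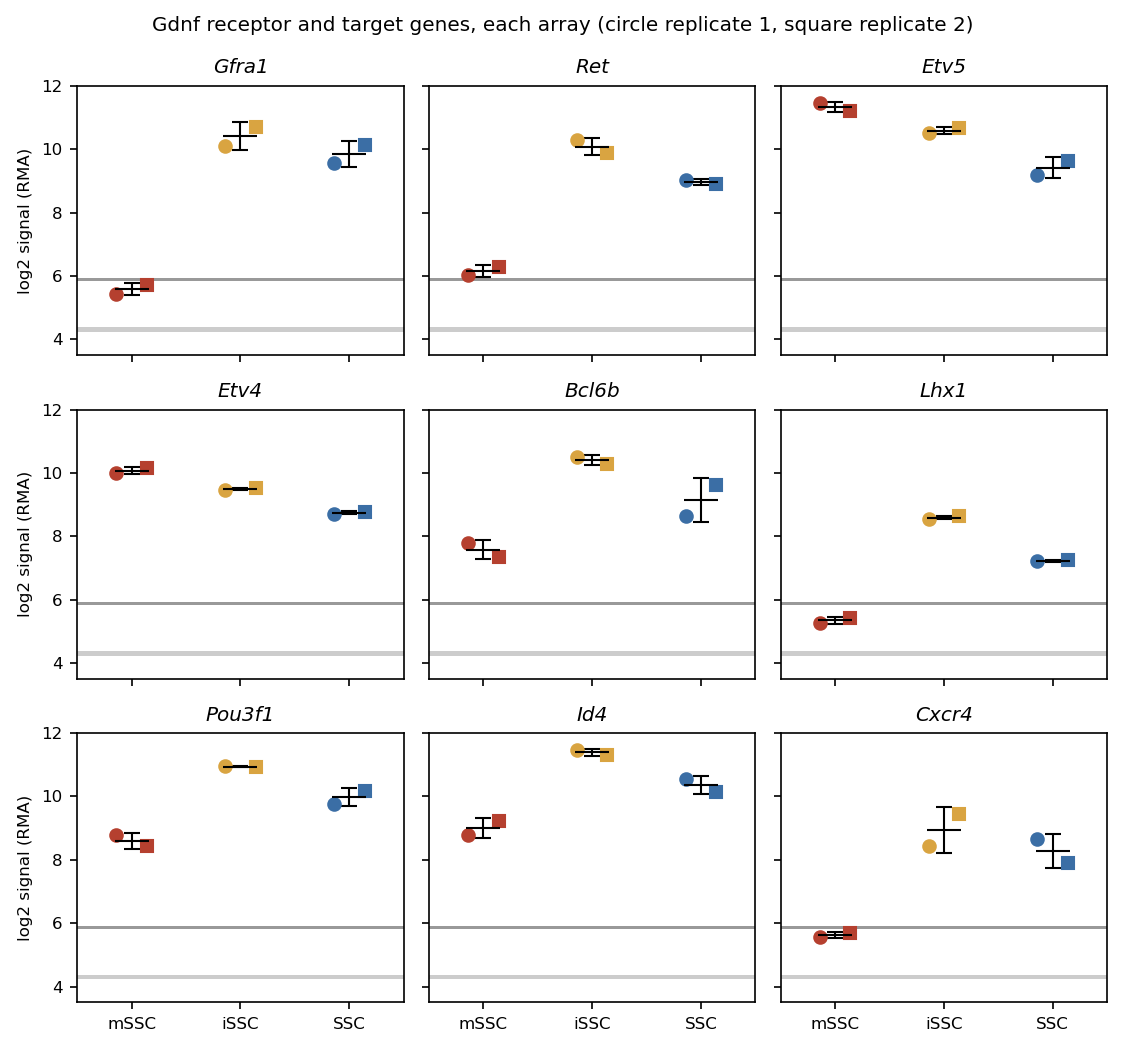
Log2 signal (vertical axis) of each of the 9 genes in mSSC, iSSC and SSC, 1 point per array with replicate 1 as a circle and replicate 2 as a square. Gfra1, Ret, Bcl6b, Lhx1, Pou3f1, Id4 and Cxcr4 are lowest on both mSSC arrays, and Etv5 and Etv4 are highest there.

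The receptor genes gave the widest differences of the 9 between mSSC and the other groups. Gfra1, on chromosome 19 (58235581 to 58455946, GRCm38.p6), had log2 signals of 5.45 and 5.71 in mSSC, 10.09 and 10.72 in iSSC and 9.56 and 10.14 in SSC. Both mSSC arrays were below the array median, while iSSC and SSC overlapped. Gfra1 fell by 4.27 ± 0.31 in mSSC against SSC, a 19.3-fold lower signal (limma adjusted p = 0.0011), and fell by 4.83 ± 0.31 in mSSC against iSSC, a 28.4-fold lower one (adjusted p = 0.0011). Between iSSC and SSC the difference was 0.56 ± 0.31 (adjusted p = 0.44, 95% interval -0.20 to 1.32), so these 2 groups were not separated.

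Ret, the kinase subunit on chromosome 6 (118151748 to 118197744), had log2 signals of 6.04 and 6.30 in mSSC, 10.28 and 9.89 in iSSC and 9.04 and 8.90 in SSC. The groups did not overlap, with iSSC highest and mSSC lowest. Ret fell by 2.80 ± 0.24 in mSSC against SSC (adjusted p = 0.0016), which is 6.98-fold, and fell by 3.92 ± 0.24 in mSSC against iSSC (adjusted p = 0.00099), which is 15.1-fold. The iSSC minus SSC difference of 1.11 ± 0.24 missed the threshold (adjusted p = 0.081, 95% interval 0.54 to 1.68).

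The ETS factors ran the other way. Etv5, on chromosome 16 (22381313 to 22439570), is a transcriptional activator required for lasting spermatogenesis in the mouse. Its log2 signals were 11.45 and 11.22 in mSSC, 10.52 and 10.66 in iSSC and 9.18 and 9.65 in SSC. Every mSSC array was above every iSSC array, and every iSSC array above every SSC array. Etv5 rose by 1.92 ± 0.24 in mSSC against SSC, or 3.78-fold (adjusted p = 0.0052). The steps on either side of iSSC did not pass the test, with 0.74 ± 0.24 in mSSC against iSSC (adjusted p = 0.092, 95% interval 0.15 to 1.33) and 1.18 ± 0.24 in iSSC against SSC (adjusted p = 0.077, 95% interval 0.59 to 1.77).

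Etv4, its relative on chromosome 11 (101769747 to 101785310), had log2 signals of 9.99 and 10.16 in mSSC, 9.47 and 9.52 in iSSC and 8.72 and 8.78 in SSC. The order of the groups was that of Etv5, without overlap and with closer replicates. Etv4 rose by 1.33 ± 0.20 in mSSC against SSC, or 2.51-fold (adjusted p = 0.0083). It differed by 0.58 ± 0.20 in mSSC against iSSC (adjusted p = 0.10), which passed the test with array medians set equal (0.76, adjusted p = 0.046; adjusted p 0.046 to 0.40 over the 17 other settings). The iSSC minus SSC difference was 0.75 ± 0.20 (adjusted p = 0.14).

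The remaining transcription regulators had their highest signal in iSSC. Bcl6b, on chromosome 11 (70224127 to 70229798), encodes a zinc finger repressor. It had log2 signals of 7.79 and 7.36 in mSSC, 10.51 and 10.28 in iSSC and 8.65 and 9.62 in SSC. The groups did not overlap, and the SSC replicates lay 0.98 apart. Bcl6b fell by 2.82 ± 0.36 in mSSC against iSSC, or 7.06-fold (adjusted p = 0.0054), and fell by 1.56 ± 0.36 in mSSC against SSC, or 2.94-fold (adjusted p = 0.031). The call against SSC was the least firm of the 9. It was lost on the 4 arrays of the groups compared (adjusted p = 0.068), with array medians set equal (-1.30, adjusted p = 0.058) and with quantile normalization (-1.34, adjusted p = 0.067). The adjusted p was 0.052 under the replicate block and 0.18 without moderation. Against SSC the change was -2.05 without SSC replicate 1 and -1.07 without SSC replicate 2, the extremes with 1 array left out. Against iSSC it was then between -3.04 and -2.60. A group of 1 array has no spread of its own, so such fits cannot decide whether the calls hold.

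Lhx1 encodes a LIM homeodomain factor that is also needed for head and kidney formation in the mouse, and lies on chromosome 11 (84517975 to 84525534). It had log2 signals of 5.27 and 5.41 in mSSC, 8.55 and 8.63 in iSSC and 7.21 and 7.25 in SSC. The groups were far apart for their spread, and the mSSC arrays were below the array median. Lhx1 fell by 1.89 ± 0.20 in mSSC against SSC (adjusted p = 0.0029) and fell by 3.25 ± 0.20 in mSSC against iSSC (adjusted p = 0.0010), which are 3.70-fold and 9.50-fold. It rose by 1.36 ± 0.20 in iSSC against SSC, or 2.57-fold (adjusted p = 0.035). With 1 SSC or iSSC array left out the change was 1.32 to 1.40. That group then has no spread of its own, so such a fit cannot decide whether the call holds. On its other probe set, 1450428_at, the iSSC minus SSC difference was 0.65 ± 0.32, or 1.57-fold (adjusted p = 0.41). Under the replicate block the adjusted p was 0.053, and over the 17 other settings it ran between 0.035 and 0.42.

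Pou3f1 encodes a POU domain factor, also known as Oct6, on chromosome 4 (124657646 to 124660655). It had log2 signals of 8.78 and 8.42 in mSSC, 10.95 and 10.92 in iSSC and 9.78 and 10.18 in SSC. Without overlap between groups, it fell by 1.38 ± 0.25 in mSSC against SSC (adjusted p = 0.014) and fell by 2.34 ± 0.25 in mSSC against iSSC (adjusted p = 0.0031). These are 2.60-fold and 5.06-fold lower signals. With 1 array left out the change against SSC was between -1.58 and -1.17, and such a fit cannot decide whether the call holds. Over the 17 other settings the adjusted p against SSC ran between 0.014 and 0.098. The iSSC minus SSC difference was 0.96 ± 0.25 (adjusted p = 0.13).

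Id4, on chromosome 13 (48261116 to 48266028), encodes a helix-loop-helix protein without a DNA-binding domain that blocks the partners it pairs with, and marks the most stem-like spermatogonia of the mouse. It had log2 signals of 8.78 and 9.22 in mSSC, 11.47 and 11.32 in iSSC and 10.56 and 10.15 in SSC. The groups kept apart, and the mSSC signal was still well above the array median. Id4 fell by 1.36 ± 0.26 in mSSC against SSC, or 2.56-fold (adjusted p = 0.017), and fell by 2.40 ± 0.26 in mSSC against iSSC, or 5.27-fold (adjusted p = 0.0034). The call against SSC was lost with the mean of the gene's probe sets (-1.06, adjusted p = 0.055), and its adjusted p ran between 0.016 and 0.11 over the 17 other settings. With 1 array left out the change against SSC was between -1.58 and -1.14, with -1.15 without SSC replicate 1. Such a fit cannot decide whether the call holds. Id4 in iSSC minus SSC was at 1.04 ± 0.26 (adjusted p = 0.12).

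Cxcr4, the receptor for the chemokine Cxcl12 that draws germ cells to their niche, lies on chromosome 1 (128588199 to 128592299). Its log2 signals were 5.56 and 5.69 in mSSC, 8.42 and 9.44 in iSSC and 8.65 and 7.90 in SSC. Both mSSC arrays were below the array median, and iSSC and SSC overlapped. Cxcr4 fell by 2.64 ± 0.40 in mSSC against SSC, or 6.25-fold (adjusted p = 0.0088), and fell by 3.30 ± 0.40 in mSSC against iSSC, or 9.88-fold (adjusted p = 0.0047). Its iSSC minus SSC difference was 0.66 ± 0.40 (adjusted p = 0.48, 95% interval -0.31 to 1.63). Cxcr4 is also expressed by macrophages, whose markers are given above, and their part in its signal was not tested.

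The 3 groups thus took the same order for 7 of the 9 members, with iSSC at the top, SSC next and mSSC at the bottom. The mean was highest in mSSC for Etv5 and Etv4, in iSSC for the other 7 and in SSC for none. Of all genes 41.1% had their highest mean in mSSC, 34.1% in iSSC and 24.9% in SSC. In iSSC against SSC all 9 differences were positive, also without SSC replicate 1. Their median over the 6 arrays was 1.04, where 61.5% of all genes had a positive difference and the median over all genes was 0.10. Those with an unadjusted p under 0.05 were 7 of the 9, against 3090 of 18194 genes. Gfra1 and Cxcr4, whose iSSC and SSC arrays overlapped, were the exceptions. The comparisons share arrays, so the differences of a member in them are not independent.

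**Figure D3:**
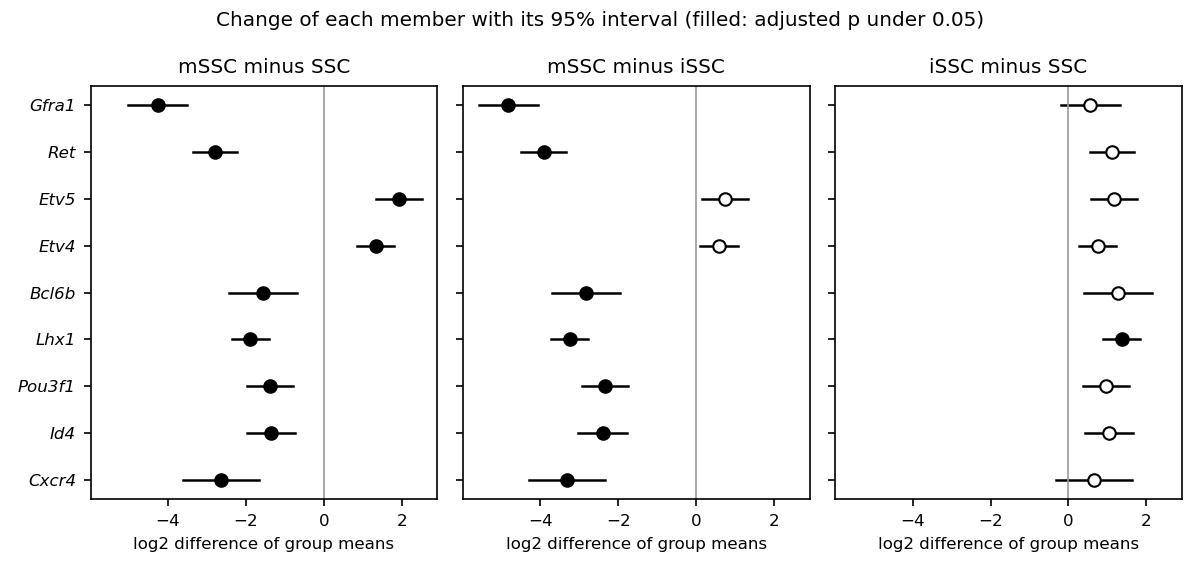
Log2 difference of group means (horizontal axis) of each member in mSSC minus SSC, mSSC minus iSSC and iSSC minus SSC, with its 95% interval and filled points for adjusted p under 0.05. Etv5 and Etv4 lie right of 0 in all 3 panels, and in iSSC minus SSC only Lhx1 is filled.

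The 19 probe sets gave the same direction as the one that stands for the gene in every comparison, and sizes that differed for some. When every probe set was tested on its own, 9 of the 19 fell and 4 rose in mSSC against SSC, 12 fell and none rose in mSSC against iSSC, and none passed in iSSC against SSC. Shares over all 34958 probe sets were not counted, so these counts serve only as a check on the members. Gfra1 was the least even. Its probe set 1450440_at had 4.56 and 4.90 in mSSC, 9.08 and 9.74 in iSSC and 6.16 and 9.16 in SSC, and 1421973_at had 5.30 and 4.95 in mSSC, 8.37 and 8.92 in iSSC and 5.85 and 8.46 in SSC. The SSC replicates were thus 3.00 and 2.61 apart on these, against 0.58 on the probe set that stands for the gene, and the lower array was SSC replicate 1. In mSSC against SSC these probe sets did not pass the test (-2.93, adjusted p = 0.099, and -2.03, adjusted p = 0.17), while both fell in mSSC against iSSC (-4.68, adjusted p = 0.029, and -3.52, adjusted p = 0.045).

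Etv5 had a like split. Its probe sets 1420998_at and 1450082_s_at lay 1.77 and 1.86 apart between the SSC replicates, with replicate 1 lower again, against 0.47 on the probe set that stands for the gene. Both rose in mSSC against SSC, by 2.50 and 2.51 (adjusted p = 0.049 each). Bcl6b, on a single probe set, was also lower in SSC replicate 1. The 3' excess of the control transcripts in that array is given above, and its part in these gaps was not tested. Without SSC replicate 1 the probe sets that stand for Gfra1 and Etv5 changed by -4.56 and 1.68 in mSSC against SSC. In iSSC against SSC their changes were then 0.27 and 0.94. Ret on 1436359_at fell by 3.91 in mSSC against SSC (adjusted p = 0.0033), with 4.13 and 4.97 in mSSC, of which 4.13 was under the lower quartile, and 8.54 and 8.39 in SSC. Lhx1 on 1450428_at fell too (adjusted p = 0.0039), with 3.94 and 3.74 in mSSC, both under the lower quartile, and 7.38 and 7.96 in SSC, so no size is given. Etv4 on 1443381_at stayed between 4.55 and 5.34 on all 6 arrays, between the lower quartile and the median of each array, and did not pass in mSSC against SSC (0.33 ± 0.29, adjusted p = 0.53). Pou3f1 on 1422068_at (-0.89, adjusted p = 0.29) did not pass in mSSC against SSC either. Nor did Id4 on 1423260_at (-1.13, adjusted p = 0.051) and on 1450928_at (-0.68, adjusted p = 0.38). In mSSC against iSSC Id4 on 1423260_at fell (-2.36, adjusted p = 0.0076). Pou3f1 on 1422068_at (-1.19, adjusted p = 0.18) and Id4 on 1450928_at (-0.77, adjusted p = 0.36) did not pass there.

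**Figure D4:**
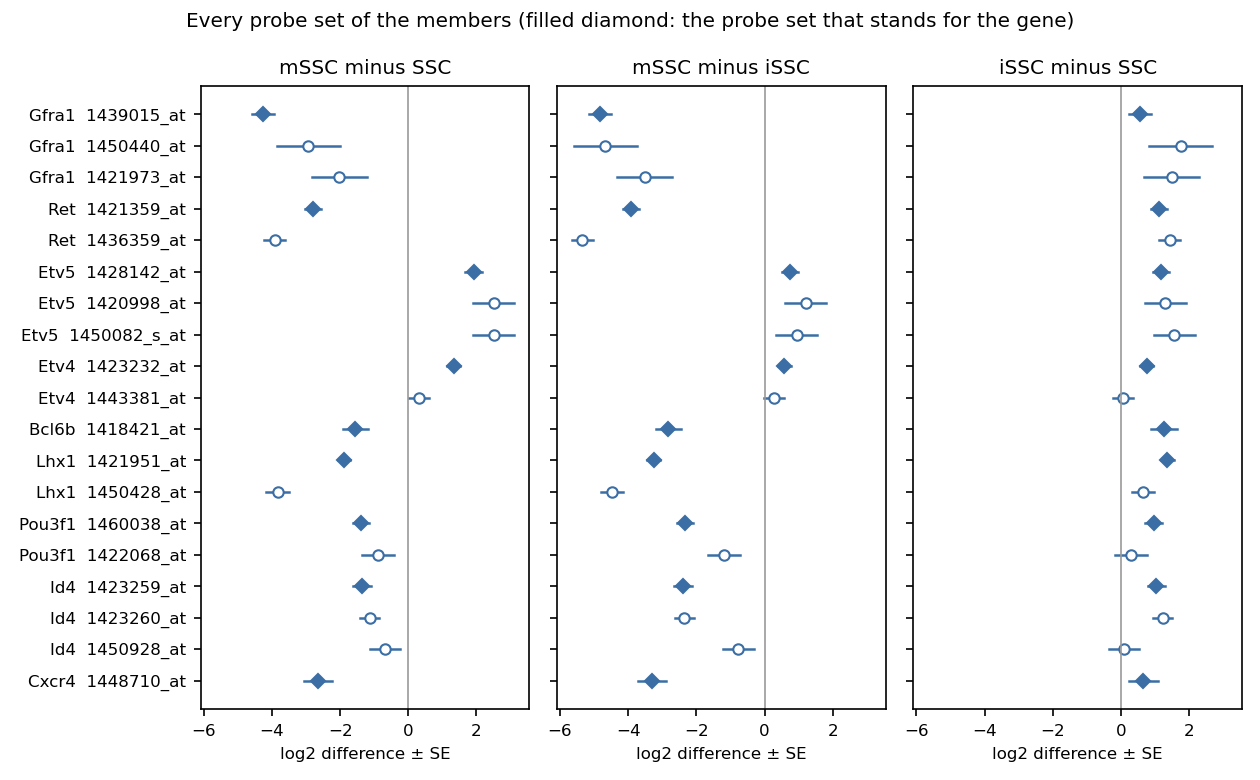
Log2 difference ± SE (horizontal axis) of each of the 19 probe sets in the 3 comparisons, with a filled diamond for the probe set that stands for the gene. All probe sets of a gene lie on the same side of 0, and the probe sets of Gfra1 spread between -4.27 and -2.03 in mSSC minus SSC.

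The rest of the Gdnf pathway was read from lists that hold 95 measured genes besides the members. Of these 26 fell and 5 rose in mSSC against SSC, 21 fell and 5 rose in mSSC against iSSC, and 1 fell in iSSC against SSC. As shares, 27.4% fell and 5.26% rose in the first comparison, where 10.6% and 8.22% of all genes did. In the second 22.1% and 5.26% did, against 9.6% and 7.53% of all genes. In the third 1.05% fell, against 1.87% of all genes. The median changes of the 95 were -0.36, -0.35 and 0.12, where those of all genes were 0.08, -0.01 and 0.10. Without either iSSC array fewer of the 95 passed in the first 2 of these comparisons, and without mSSC replicate 1 fewer passed in the second. Fewer of all genes passed in these fits as well. A group then has 1 array and no spread of its own, so the counts are not given. No ligand of the family passed limma's test among 4 measured. At an unadjusted p under 0.05, 1 was higher in mSSC against SSC, 1 higher and 1 lower in mSSC against iSSC, and 0 in iSSC against SSC. Of all 18194 genes 6075, 5629 and 3090 had such a p, in that order. Gdnf itself had log2 signals of 4.43 and 5.01 in mSSC, 5.39 and 5.40 in iSSC and 5.09 and 4.89 in SSC, all below the array median, and artemin (Artn) differed by 1.35 ± 0.40 in mSSC against SSC (adjusted p = 0.062).

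Of 7 other receptors and co-receptors 3 fell and 1 rose in mSSC against SSC, and 2 fell and 1 rose against iSSC. These are 42.9% and 14.3% against SSC, where 10.6% and 8.22% of all genes fell and rose. Against iSSC they are 28.6% and 14.3%, where all genes gave 9.6% and 7.53%. Ncam1, a cell adhesion molecule that can bind Gdnf with Gfra1, fell by 3.19 ± 0.52 against SSC (adjusted p = 0.010) and differed by -1.48 ± 0.52 against iSSC (adjusted p = 0.11). Gfra3, the co-receptor for artemin, fell by 1.34 ± 0.26 against SSC (adjusted p = 0.017) and fell by 1.07 ± 0.26 against iSSC (adjusted p = 0.035). Sorl1, a sorting receptor that takes up Gdnf and Gfra1, rose by 2.69 ± 0.25 against SSC (adjusted p = 0.0021) and by 2.24 ± 0.25 against iSSC (adjusted p = 0.0038). The receptor genes therefore did not move in 1 direction.

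Among 30 adaptors and kinases downstream of Ret 7 fell and 2 rose in mSSC against SSC, and 4 fell and 3 rose against iSSC. As shares of the list these are 23.3% and 6.67% against SSC and 13.3% and 10.0% against iSSC, and the shares against iSSC are near the 9.6% and 7.53% of all genes. The docking proteins Gab1 and Gab2 moved in opposite directions. Gab1 rose by 3.05 ± 0.25 against SSC (adjusted p = 0.0015) and by 2.71 ± 0.25 against iSSC (adjusted p = 0.0022), whereas Gab2 fell by 2.91 ± 0.34 (adjusted p = 0.0039) and fell by 2.62 ± 0.34 (adjusted p = 0.0056). Fyn, a Src family kinase, fell by 1.79 ± 0.28 against SSC (adjusted p = 0.0089) and fell by 1.86 ± 0.28 against iSSC (adjusted p = 0.0084). None of the 30 passed in iSSC against SSC, where 1 was higher and 6 were lower at an unadjusted p under 0.05. Of all 18194 genes 3090 had such a p there.

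A list of 19 other genes tied to Gdnf in cultured spermatogonia had 7 lower and 1 higher in mSSC against SSC, and 8 lower and none higher against iSSC. The lower genes are 36.8% and 42.1% of the list, where 10.6% and 9.6% of all genes fell. The 1 higher is 5.26%, where 8.22% of all genes rose. Zbtb16, a zinc finger factor of undifferentiated spermatogonia, fell by 5.02 ± 0.55 in mSSC against iSSC (adjusted p = 0.0036). Ccnd2, a D-type cyclin, fell by 4.51 ± 0.42 against SSC (adjusted p = 0.0021) and fell by 4.03 ± 0.42 against iSSC (adjusted p = 0.0031). Egr2, an immediate early zinc finger factor, fell by 2.23 ± 0.55 against SSC (adjusted p = 0.037) and fell by 3.73 ± 0.55 against iSSC (adjusted p = 0.0081). Other early response genes did not pass the test in mSSC against SSC, with 0.01 for Fos (adjusted p = 0.99), 0.45 for Egr3 (adjusted p = 0.41) and 0.53 for Mycn (adjusted p = 0.31). None of the 19 passed in iSSC against SSC, where 3 were higher at an unadjusted p under 0.05, as 3090 of all 18194 genes were in either direction.

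Inhibitors of Erk signalling, some of them feedback genes raised by the pathway they restrain, had 4 of 13 lower and none higher in mSSC against SSC. The counts against iSSC were the same. The 4 are 30.8% of the list, where 10.6% of all genes fell against SSC and 9.6% against iSSC. Spred1 fell by 1.07 ± 0.22 against SSC (adjusted p = 0.023), and the phosphatase Dusp4 fell by 1.39 ± 0.33 (adjusted p = 0.034). Dusp5, another phosphatase that is also on the list before, fell by 1.47 ± 0.33 (adjusted p = 0.029). Rasa1, a Ras GTPase-activating protein, fell by 1.58 ± 0.41 against SSC (adjusted p = 0.044) but had its lowest signal in iSSC, with 9.62 and 8.88 in mSSC, 8.39 and 8.66 in iSSC and 10.31 and 11.35 in SSC. Dusp6, which removes phosphate from Erk, fell by 1.89 ± 0.48 against iSSC (adjusted p = 0.041) and differed by -0.96 ± 0.48 against SSC (adjusted p = 0.22). Spry4 and Spry2 did not pass, at 0.37 ± 0.33 (adjusted p = 0.49) and 0.89 (adjusted p = 0.42) against SSC. Rasa1 against SSC and Spry2 were named after their values were seen.

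The rise of Etv5 and Etv4 was not shared by most ETS factors. Of 18 others 5 fell and 1 rose in mSSC against SSC, and 3 fell and 1 rose against iSSC. Those that fell are 27.8% and 16.7%, where 10.6% and 9.6% of all genes fell. The 1 of 18 that rose is 5.56%, near the 8.22% of all genes that rose against SSC and the 7.53% against iSSC. Erg fell against SSC (adjusted p = 0.0029), with 3.93 and 3.44 in mSSC, under the lower quartile, and 7.37 and 8.63 in SSC, so no size is given. Ets1 fell by 3.01 ± 0.31 against iSSC (adjusted p = 0.0029), while Elf3, an epithelial ETS factor, rose by 3.22 ± 0.26 against SSC (adjusted p = 0.0014). Fli1, which marks blood and endothelial cells among others, was the 1 gene of the 95 that passed in iSSC against SSC, where it fell by 2.05 ± 0.21 (adjusted p = 0.024), to signals of 4.46 and 4.69 that were just above the lower quartile. With an SSC or iSSC array left out, that group has 1 array and no spread of its own. Such a fit cannot decide whether the Fli1 call in iSSC against SSC holds. Macrophage markers fell in the same comparison, as given above, and their part was not tested.

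The 3 relatives of Id4 did not pass the test in any comparison. At an unadjusted p under 0.05, 1 was lower in mSSC against SSC, 2 in mSSC against iSSC and 0 in iSSC against SSC. Of all 18194 genes 6075, 5629 and 3090 had such a p in either direction. Their mSSC minus SSC differences were -0.44 ± 0.43 for Id1 (adjusted p = 0.53), -1.27 ± 0.53 for Id2 (adjusted p = 0.15) and -1.30 ± 0.64 for Id3 (adjusted p = 0.22). Cxcl12, the ligand of Cxcr4 and a product of stromal cells, fell by 3.63 ± 0.51 in mSSC against SSC (adjusted p = 0.0070) and fell by 1.98 ± 0.51 against iSSC (adjusted p = 0.045). Ackr3, its other receptor, was at 0.31 ± 0.54 against SSC (adjusted p = 0.74) and did not pass. Fibroblast markers moved with Cxcl12, and their part was not tested. Nanos2 and Etv1 were not analysed here.

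**Figure D5:**
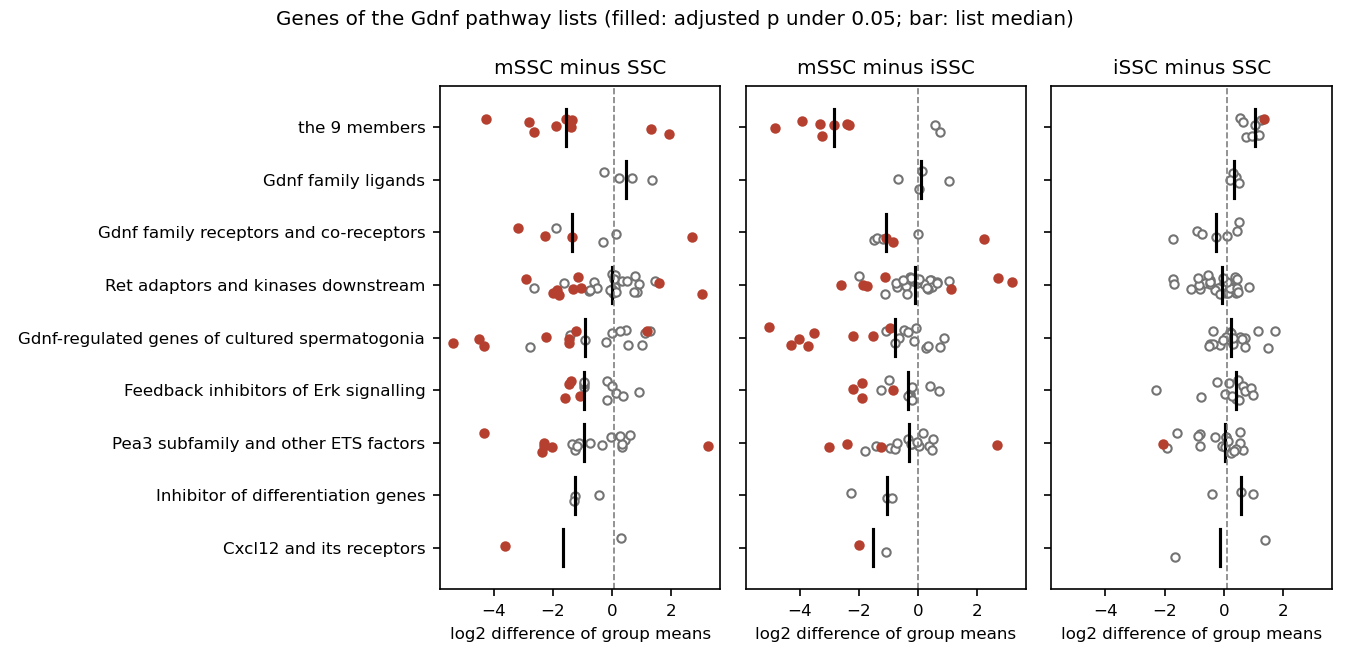
Log2 difference of group means (horizontal axis) of each gene of the pathway lists and of the 9 members in the 3 comparisons, filled where the adjusted p is under 0.05, with a bar at each list's median and a dashed line at the median of all genes. In iSSC minus SSC the points filled are Lhx1 among the members and Fli1 among the ETS factors.

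Some genes elsewhere on the array followed single members closely. Likeness was measured as the root mean square difference, over the 6 arrays, between patterns of log2 signal after each gene's mean was taken out, with smaller values more alike. The closest to Gfra1 were Glis3 (0.24), Smoc2 (0.27) and Tsc22d3 (0.31), and the closest to Ret were Gnat2 (0.13), Car6 (0.16) and Sphk1 (0.20). Etv5 was followed by Nos3 (0.12), Arhgef39 (0.14) and Dnph1 (0.16), and Etv4 by Eif2d (0.075), Ndufaf3 (0.077) and Rmc1 (0.089). For Bcl6b they were Tmem74b (0.19), Katnal2 (0.20) and Kdm1b (0.22), and for Lhx1 Fut10 (0.24), Prr5 (0.25) and Ptpn13 (0.27). Each of these patterns rests on 3 groups of 2 arrays, and the genes were taken from 18194 for their likeness, which is a description only.

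Both Pou3f1 and Cxcr4 had genes of the Hoxb cluster among their closest. Pou3f1 was followed by C920006O11Rik (0.10), Hoxb1 (0.10) and Hmgb3 (0.14), and Cxcr4 by Hoxb2 (0.27), Barhl2 (0.29) and Hoxb4 (0.31). Barhl2 and Hoxb1 were under the lower quartile on both mSSC arrays, so their likeness rests in part on signal near background. Barhl2 had 3.94 and 3.15 in mSSC, and Hoxb1 had 3.99 and 3.61 there, against 6.23 and 6.16 in iSSC and 5.26 and 5.56 in SSC. Id4 was followed by Fas (0.18), Brsk2 (0.18) and Pgbd5 (0.19). Among the members the most alike pairs were Bcl6b with Pou3f1 (0.27), Etv5 with Etv4 (0.30) and Pou3f1 with Id4 (0.33), and the least alike were Gfra1 and Etv5 (2.79).

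Upstream sequence is shown for Lhx1 and Cxcr4, which fell in mSSC, and for the first start of Etv5, which rose there, to show what lies before members of either direction. The windows are the 250 bases before a gene's start in RefSeq's GRCm38.p6, all on the minus strand and written 5' to 3' along the gene, at chr11:84525535-84525784 for Lhx1, chr1:128592300-128592549 for Cxcr4 and chr16:22439571-22439820 for Etv5. Capitals mark the ETS core GGAA on either strand (TTCC on the other), the letters that ETS factors such as Etv4 and Etv5 bind at. This motif was chosen after the windows had been read.
Lhx1: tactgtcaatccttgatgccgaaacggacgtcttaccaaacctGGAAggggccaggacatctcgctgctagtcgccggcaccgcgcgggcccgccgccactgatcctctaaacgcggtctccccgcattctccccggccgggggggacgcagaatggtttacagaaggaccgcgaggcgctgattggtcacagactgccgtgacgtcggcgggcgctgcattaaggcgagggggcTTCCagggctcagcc
Cxcr4: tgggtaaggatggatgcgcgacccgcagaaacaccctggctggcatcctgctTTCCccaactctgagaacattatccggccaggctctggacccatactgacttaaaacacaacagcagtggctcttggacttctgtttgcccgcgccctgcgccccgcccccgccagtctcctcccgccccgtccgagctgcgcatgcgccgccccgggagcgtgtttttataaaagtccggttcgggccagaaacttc
Etv5: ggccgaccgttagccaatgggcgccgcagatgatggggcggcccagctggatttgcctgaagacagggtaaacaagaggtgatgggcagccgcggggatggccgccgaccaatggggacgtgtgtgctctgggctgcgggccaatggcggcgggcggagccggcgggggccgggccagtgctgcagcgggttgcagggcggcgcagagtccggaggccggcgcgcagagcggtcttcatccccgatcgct
The Lhx1 window has 2 cores, 207 and 15 bases before the start, the Cxcr4 window has 1, 198 bases before it, and the Etv5 window printed has 0. The window before the other start of Etv5, chr16:22438369-22438618, lies within the gene and is not printed. It has 4 cores, the most of the 6 member windows. Etv5 is the only member that rose and has a window, so core number could not be compared between members by direction. The core is frequent, and 93.4% of the 32851 windows of this length in the table hold it on either strand. Of 6 windows found for 5 members, Gfra1, Etv5 with 2, Lhx1, Id4 and Cxcr4, 5 hold it. Longer motifs searched on both strands were CCGGAAG, an ETS site with flanks that contains the core, in 6.91% of all windows, the E-box CACGTG in 6.02% and the octamer ATGCAAAT in 1.60%, and 0 of the 6 windows hold any of them. A match or its absence describes these letters only.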

How the data were processed

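The authors deposited log2 signals made with RMA, per the submitters' processing notes, which give no version. RMA subtracts background, quantile-normalizes arrays and summarises each probe set, so differences of dim genes are compressed. Per the labels' protocols, 10 µg of total RNA was amplified and biotin-labelled with NuGEN kits. No further normalization and no filter on low values were applied, and 0 columns were left out.

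Of 45101 probe sets 34958 had 1 symbol, 932 several and 9211 none. Through the RefSeq gene table of GRCm38.p6, which matched 34754, 0 symbols were updated. A gene's probe set with the highest mean stood for it, giving 18194 genes.

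A single limma model (limma 3.58.1, R 4.3.3) with 1 mean per group was fitted to the 6 arrays, which left 3 residual degrees of freedom. Its moderated 2-sided p-values were adjusted by Benjamini-Hochberg over the genes. The fit was tested on simulated data. Members and lists were chosen with earlier results of these data known. The members are named on every array. Beyond them the text may name the 3 genes of smallest p per list and comparison, a panel of pathway genes, the 3 genes most like each member, and marker lists as a whole. Other settings are given at the end.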

Additional observations from a re-analysis of the deposited data

How the results depend on the processing

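No change of a member turned its direction in 489 values under other settings, and 48 of them lay on the other side of the threshold. Many of these settings, such as an intensity trend or a test without moderation, leave the change itself as it was. Its direction could not turn under them, so the 489 values are not as many chances of a reversal. Members called numbered 9 in mSSC against SSC, 7 in mSSC against iSSC and 1 in iSSC against SSC, and 8, 7 and 0 with the replicate number as a term (replicate block). Of all 18194 genes 3425, 3117 and 381 were called, and 3428, 3175 and 148 with that term. Across genes the replicate 2 minus replicate 1 differences correlated at r = 0.068 between mSSC and SSC, 0.171 between mSSC and iSSC and 0.120 between iSSC and SSC, and the labels give the numbers no shared source. Without moderation 0, 1 and 0 members were called, where 14, 26 and 2 of all 18194 genes were. At an unadjusted p under 0.05 there were 9 members in mSSC against SSC and 6 in iSSC against SSC. That test rests on 3 residual degrees of freedom. The iSSC against SSC count was also 0 with an intensity trend, the mean of a gene's probe sets, its most variable probe set, or every probe set apart. With the first 3 of these 7, 5 and 6 members had an unadjusted p under 0.05, and 392, 29 and 113 of all genes were called. Leaving out 1 array of a compared group reversed no member's direction. The lone array of a group is then assumed to vary like the other groups, so no count of members called is given for these fits.

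Of the other pathway genes 31, 26 and 1 were called. Fits on 4 arrays gave 20 in mSSC against SSC and 3 in iSSC against SSC, where 1966 and 449 of all 18194 genes were called. The unmoderated test gave 0 in all 3 comparisons, with 31, 29 and 10 at an unadjusted p under 0.05. In iSSC against SSC 2 were called without dim genes, 2 with the trend, and 0 with the mean or the most variable probe set. Of all genes 386, 392, 29 and 113 were called under these settings, in that order. Leaving out 1 array gave 20 to 32, 8 to 29 and 0 to 4, with 8 without either iSSC array and 14 without mSSC replicate 1 in mSSC against iSSC. Setting array medians equal moved the median of all genes by 0.26, 0.18 and 0.07.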
